A study of Mus musculus with 3 samples.

Results

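The respiratory chain and ATP synthase were followed through 42 genes, of 33696 in the count tables. Of these, 29 are encoded in the nucleus and 13 in the mitochondrial genome (symbols starting with mt-). All 42 were found by their listed symbols, and none was chosen by its values. They cover complex I with 14 genes, complex II with 4, complex III with 5, cytochrome c with 1, complex IV with 9 and complex V, the ATP synthase, with 9. Single cells of mouse bone marrow were sequenced in 3 droplet libraries, 1 wild type, 1 heterozygous and 1 homozygous for a knockout of Fabp4, which encodes a fatty acid-binding protein. Each library pooled 2 mice, whose cells are not told apart in the files. The labels give no age, sex, strain, cell sort or leukaemia status, and the series asks about Fabp4 in leukaemia stem cells and normal blood stem cells. With 1 library per genotype there is no spread between animals, so no test was possible: every ratio below compares 2 libraries, and its 95% interval covers counting error only.

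The respiratory chain sits in the inner mitochondrial membrane. Complexes I and II pass electrons from NADH and succinate to ubiquinone, complex III passes them to cytochrome c, and complex IV passes them to oxygen. Complexes I, III and IV pump protons, and complex V uses the returning protons to make ATP. Complexes I, III, IV and V each combine subunits from both genomes, whereas complex II and cytochrome c are wholly nuclear-encoded. The mt- genes are transcribed as long precursors and cut apart, so their mature RNAs also depend on processing and stability. Mature neutrophils are known for relying on glycolysis and for having few mitochondria, whereas their progenitors in the marrow respire more.

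The values were unique molecular identifiers (UMIs), which count captured RNA molecules at their 3' ends. A level is given as CPM, the UMIs of a gene for every 1000000 UMIs summed over the cells of a library or class. CPM is relative to all other RNA and is not divided by gene length, so levels are compared between libraries or classes and not between genes. Barcodes counted as cells had 500 or more UMIs from 200 or more genes, of which less than 10% came from mt- genes. This left 5604, 7957 and 4318 cells of 9432, 10718 and 8115 barcodes in the wild-type, heterozygous and homozygous libraries, the order used throughout. Median depth was 10058, 7658 and 9036 UMIs per kept cell, and the kept cells held 446064, 397773 and 315157 UMIs of nuclear members and 2255875, 1792665 and 1377720 of mt- members. Fabp4 itself was scarce, with 50, 38 and 5 UMIs, and was lowest in the homozygous library. The deleted exons are not named in the labels, so this checks them only in part. The heterozygous library stood apart in Xist, at 1281, 208 and 1229.5 CPM, and in 4 Y-linked genes summed, which reached 263 CPM against 9.44 CPM in wild type, so sex and genotype cannot be told apart except within cells split by these genes. Between 21 and 26 barcodes were shared by each pair of libraries. Cells assigned by marker genes were almost all of stem, progenitor or myeloid classes, while erythroid-like and B and plasma-like cells numbered 7 or fewer in each library.

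Sequences are shown for the members whose RNA is hardest to tell apart or whose values the results turn on. The mt- sequences come from the GENCODE M21 transcripts of GRCm38, on the + strand, 5′ to 3′. The end of mt-Atp8 (chrM:7910-7969) overlaps the start of mt-Atp6 (chrM:7927-7986) by 43 bases. The end of mt-Nd4l (chrM:10114-10173) overlaps the start of mt-Nd4 (chrM:10167-10226) by 7 bases. Each pair is known to be carried on 1 shared messenger, and a read in the shared bases, in capitals, cannot be given to either gene on sequence alone.
mt-Atp8: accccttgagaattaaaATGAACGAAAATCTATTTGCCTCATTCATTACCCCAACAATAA
mt-Atp6: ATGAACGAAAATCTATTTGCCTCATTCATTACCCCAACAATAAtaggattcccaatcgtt
mt-Nd4l: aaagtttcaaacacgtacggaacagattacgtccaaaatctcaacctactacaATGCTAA
mt-Nd4: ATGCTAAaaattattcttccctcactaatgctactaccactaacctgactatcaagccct

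The last 60 bases are shown for mt-Nd1 (gene at chrM:2751-3707), mt-Nd2 (chrM:3914-4951) and mt-Co3 (chrM:8607-9390), because these 3' ends lie next to the poly(A) tail that the kit captures. Their shares of mitochondrial RNA differed in 1 direction in 6 of 6 cell classes in at least 1 comparison. The same held for all other mt- members except mt-Nd6 and mt-Atp6. Capitals mark the bases of the stop codon held in the genome. In mt-Co3 this is T alone, and the remaining bases of the stop are known to be supplied by polyadenylation. Of the 12 + strand genes, 9 held a whole stop codon and 3 (mt-Co3, mt-Nd4 and mt-Cytb) held part of one.
mt-Nd1: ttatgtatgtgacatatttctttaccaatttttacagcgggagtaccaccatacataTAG
mt-Nd2: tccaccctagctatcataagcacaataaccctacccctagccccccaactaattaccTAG
mt-Co3: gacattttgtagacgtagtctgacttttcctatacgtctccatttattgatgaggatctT

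Promoters of the nuclear members were searched because these genes differed together between cell classes. Of 29 nuclear members, 21 matched the RefSeq promoter table (GRCm38.p6), which holds 250 bases before and 50 bases after each start. Of the 6 motifs searched on both strands, the binding core of NRF1 (nuclear respiratory factor 1, GCATGCGC) was found in 3 of 21, namely Cycs, Sdhb and Uqcrc1, or 14.3%, against 3.05% of all 27025 genes with a promoter of that length. The cyclic AMP response element (TGACGTCA) was in Cycs alone, against 2.03% of all genes. The ETS motif (CCGGAAGT) was in Atp5h, and the YY1 motif (AAGATGGCG) was in Atp5j and Ndufs6, with shares of 4.31% and 1.64% over all genes. The SP motif (GGGCGG) was in 10 of 21 (47.6%, against 38.2%), and TATAAA was in 0 of 21 (against 15.7%). The 250 bases before the start are shown for Cycs (chr6:50566570-50566819, − strand) and Sdhb (chr4:140961021-140961270, + strand), whose values are described further below. Capitals mark the NRF1 match and, in Cycs, the cyclic AMP response element 5′ of it. A match is a run of letters and not evidence that the factor was bound.
Cycs: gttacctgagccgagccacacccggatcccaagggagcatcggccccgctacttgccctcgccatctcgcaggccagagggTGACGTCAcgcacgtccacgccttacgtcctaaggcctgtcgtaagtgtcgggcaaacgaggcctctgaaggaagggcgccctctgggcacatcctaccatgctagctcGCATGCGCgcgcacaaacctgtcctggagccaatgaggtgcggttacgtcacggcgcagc
Sdhb: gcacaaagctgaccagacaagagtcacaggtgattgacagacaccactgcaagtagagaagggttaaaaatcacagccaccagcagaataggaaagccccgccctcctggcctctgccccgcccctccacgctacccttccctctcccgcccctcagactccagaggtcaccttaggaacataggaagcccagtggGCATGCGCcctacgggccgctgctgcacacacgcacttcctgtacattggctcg

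Nuclear respiratory chain RNA was lowest in the heterozygous library and differed little between the homozygous and wild-type libraries. The 29 nuclear members summed to 6644, 5458 and 6837 CPM. All 29 were below wild type in the heterozygous library, where 62.3% of 17412 genes were below it. The median log2 ratio was -0.28 (-0.31 to -0.23, the medians of the members' interval bounds), against -0.14 over all genes tested. Of the 29, 12 were lower by a ratio of 5 to 4 or more (about 0.32 on the log2 scale, the threshold behind every count of members here), and 34.9% of all genes were. In the homozygous library 22 of 29 were above wild type, where 56.9% of all genes were, and 0 were past the threshold, against 22.6% and 17.2% of 17034 genes that were past it upward and downward. That median was 0.06, equal to the 0.06 over all genes, and it turned to -0.02 with size factors and to -0.08 with each cell counted once. The homozygous library exceeded the heterozygous one in all 29 (all genes 66.0%), with a median of 0.34 against 0.22, and 15 of 29 were past the threshold against 41.4% of 17026 genes. The wild-type library serves both knockout comparisons, so these are not independent. Scaling by median-of-ratios size factors would add 0.15 to every heterozygous to wild-type log2 ratio take 0.23 from every homozygous to heterozygous one and take 0.08 from every homozygous to wild-type one, while the distance from the all-gene median would stay the same.

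**Figure D1:**
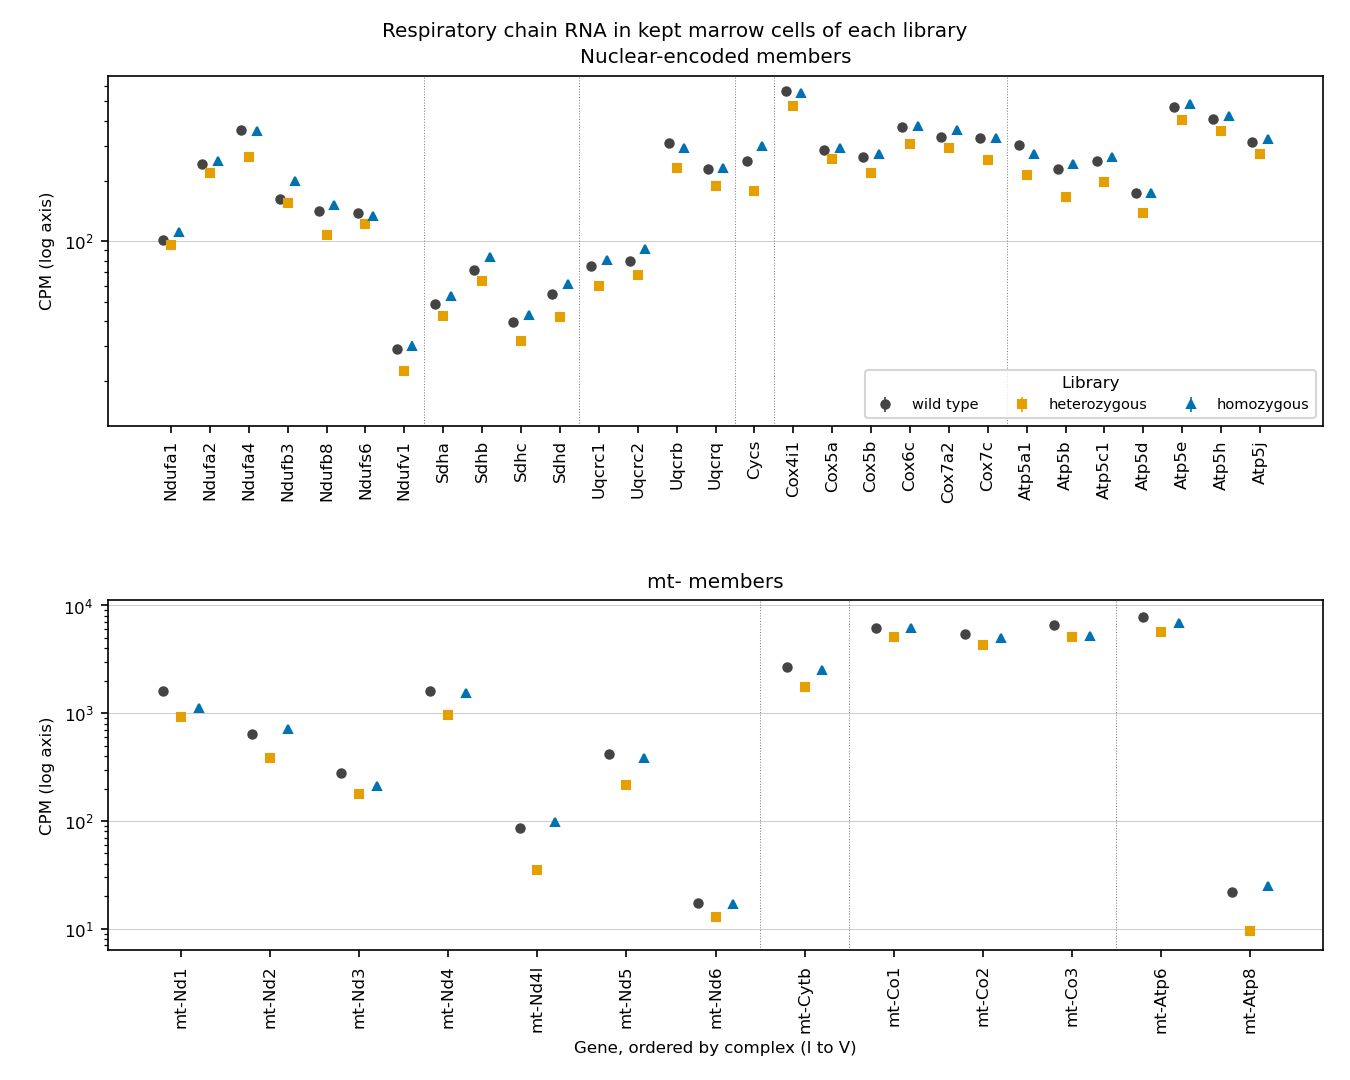
Level of each member in all kept cells (CPM, log axis) for the wild-type (circle), heterozygous (square) and homozygous (triangle) libraries; dotted lines separate the complexes and the counting intervals, drawn as bars, are mostly smaller than the symbols. The heterozygous square is the lowest of the 3 for all 29 nuclear and all 13 mt- members.

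Complex I oxidises NADH. Its 7 nuclear members summed to 1179, 986 and 1234 CPM. Ndufa4, named for complex I and since found with complex IV, was at 361, 265 and 355 CPM, with a heterozygous to wild-type log2 ratio of -0.44 (-0.47 to -0.42). Ndufb8, an accessory subunit of the membrane arm, was at 142, 108 and 152 CPM, and that ratio was -0.40 (-0.45 to -0.36). Both were near wild type in the homozygous library. Ndufb3, another membrane-arm subunit, differed in size from these: it was at 163, 155 and 199 CPM, and the homozygous library was above wild type by 0.29 (0.25 to 0.33) while the heterozygous ratio was -0.08 (-0.11 to -0.04). Among the 29 nuclear members it had the highest homozygous to wild-type ratio. Ndufv1, which holds the flavin that accepts electrons from NADH, was at 28.8, 22.5 and 30.1 CPM. The others, Ndufa1, Ndufa2 and Ndufs6, had heterozygous to wild-type ratios between -0.20 and -0.09, and Ndufs6 was also below wild type in the homozygous library, at -0.06 (-0.11 to -0.01).

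Complex II is succinate dehydrogenase, shared with the tricarboxylic acid cycle. All 4 of its genes were lowest in the heterozygous and highest in the homozygous library. Sdha, the flavoprotein, was at 48.7, 42.5 and 53.00 CPM, and Sdhb, the iron-sulphur subunit, at 71.6, 63.1 and 83.8 CPM. The membrane anchors Sdhc and Sdhd were at 39.4, 31.6 and 42.7 CPM and at 54.7, 41.99 and 61.4 CPM. The median homozygous to wild-type ratio was 0.14 for these 4, above the 0.06 of all genes, with Sdhb at 0.23 (0.16 to 0.29) and Sdhd at 0.17 (0.10 to 0.24).

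Complex III carries electrons from ubiquinol to cytochrome c. The core proteins Uqcrc1 and Uqcrc2 were at 74.9, 59.6 and 80.6 CPM and at 79.4, 67.6 and 91.7 CPM, highest in the homozygous library. Of the small subunits, Uqcrq had the same order and Uqcrb did not. Uqcrb, which lies near the ubiquinone site, was at 311, 231 and 292 CPM, with a heterozygous to wild-type ratio of -0.43 (-0.46 to -0.40) and a homozygous one of -0.09 (-0.12 to -0.06), and Uqcrq was at 231, 189.7 and 233 CPM. The core proteins and small subunits therefore lay on opposite sides of the all-gene median in the homozygous to wild-type comparison.

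Cycs encodes somatic cytochrome c, which shuttles electrons to complex IV and triggers apoptosis when released. It was at 251, 179 and 299 CPM. No other nuclear member had a larger difference between the homozygous and heterozygous libraries, 0.74 (0.71 to 0.78). It was above wild type in the homozygous library, by 0.25 (0.22 to 0.28), and below it in the heterozygous one, with a ratio of -0.49 (-0.52 to -0.46). Mice carry processed pseudogenes of Cycs and of several small subunits, and how reads with more than 1 match were counted is not given in the sources used here, so their levels are uncertain to that extent.

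Complex IV reduces oxygen. Its 6 nuclear members, which surround the catalytic core made in the mitochondrion, summed to 2154, 1809 and 2182 CPM. Cox4i1, the largest nuclear subunit, was at 566, 476 and 549 CPM. Cox7c was at 329, 256 and 328 CPM and was the only one of the 6 past the threshold in the heterozygous library, with a ratio of -0.36 (-0.39 to -0.33). Cox5a, Cox5b, Cox6c and Cox7a2 had ratios of -0.16, -0.26, -0.28 and -0.19 there, and all 6 were within -0.04 to 0.12 of wild type in the homozygous library.

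Complex V makes ATP. Among the listed members, its catalytic head and the small subunits Atp5e, Atp5h and Atp5j differed in the size of the heterozygous deficit. Atp5a1 and Atp5b encode the alternating alpha and beta subunits of the head, and Atp5c1 the gamma shaft that turns inside it. Atp5a1 was at 302, 215 and 272 CPM, Atp5b at 231, 167 and 243 CPM and Atp5c1 at 253, 198 and 263 CPM. Their heterozygous to wild-type ratios were -0.49 (-0.52 to -0.46), -0.47 (-0.50 to -0.43) and -0.35 (-0.39 to -0.32). Atp5a1 was also the nuclear member farthest below wild type in the homozygous library, at -0.15 (-0.18 to -0.12). Atp5d, the delta subunit, lay close to these, at -0.33 (-0.36 to -0.29) in the heterozygous library. Atp5e, Atp5h and Atp5j, the epsilon, d and F6 subunits, lay between -0.21 and -0.19, nearer to the all-gene median of -0.14. The 10 other ATP synthase subunits, outside the listed genes, had a heterozygous to wild-type median of -0.33, with 5 past the threshold. The difference is therefore described for the listed members only.

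The 13 mt- members were also lowest in the heterozygous library, by more than the nuclear ones. They summed to 33599, 24597 and 29890.0 CPM. All 13 were below wild type there (all genes 62.3%), and 12 were lower past the threshold (all genes 34.9%). The median was -0.65 (-0.68 to -0.62), against -0.14 over all genes. In the homozygous library 10 of 13 were below wild type (all genes 43.1%), with a median of -0.08 (all genes 0.06). Lower past the threshold were 3 of them, mt-Nd1, mt-Nd3 and mt-Co3 (all genes 17.2%). The sign of that median changed with the mitochondrial limit on cells, as given below. Against the heterozygous library all 13 were higher in the homozygous one (all genes 66.0%), 7 of them past the threshold (all genes 41.4%).

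The complex I genes of the mitochondrion spread most. They encode the proton-pumping core of the membrane arm. mt-Nd1 was at 1610.3, 919.9 and 1113 CPM, so both knockout libraries were below wild type, with ratios of -0.81 (-0.82 to -0.79) and -0.53 (-0.55 to -0.52). mt-Nd3, at 277, 176 and 212 CPM, had the same order. mt-Nd2 was at 642, 380.0 and 715 CPM, lowest in the heterozygous library but highest in the homozygous one, where its ratio to wild type was 0.15 (0.13 to 0.18). mt-Nd4l, at 86.1, 35.00 and 98.00 CPM, shared that order with ratios of -1.30 (-1.37 to -1.23) and 0.19 (0.13 to 0.24). mt-Nd4 was at 1606, 957 and 1546 CPM and mt-Nd5 at 420.3, 217 and 383 CPM, in each case with the homozygous library close to wild type. mt-Nd6, the one member on the other strand, was at 17.4, 12.8 and 16.99 CPM, and its homozygous interval of -0.03 (-0.16 to 0.10) included no difference.

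mt-Cytb, the haem-carrying core of complex III, was at 2682, 1735 and 2542 CPM. The catalytic core of complex IV is made of mt-Co1, mt-Co2 and mt-Co3. These were at 6219, 5079.9 and 6212 CPM, at 5481, 4309 and 4973 CPM and at 6637, 5117 and 5179 CPM. mt-Co1 was level with wild type in the homozygous library, whereas the ratio of mt-Co3 was -0.36 (-0.37 to -0.35), which left the homozygous level close to the heterozygous one, at 0.02 (0.01 to 0.02). For complex V, mt-Atp6, the proton channel subunit, was at 7899, 5650.2 and 6875 CPM. Its small partner mt-Atp8 was at 22.04, 9.52 and 24.8 CPM, with ratios to wild type of -1.21 (-1.34 to -1.08) in the heterozygous library and 0.17 (0.06 to 0.28) in the homozygous one. mt-Atp8 and mt-Nd4l, whose overlapping 3' ends are shown above, had the lowest heterozygous to wild-type ratios of the 13.

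The make-up of mitochondrial RNA differed between the libraries in a way that does not depend on total scaling. Here each gene is given as its share of the UMIs of all 13 mt- members. mt-Nd1 took 4.79%, 3.74% and 3.72% of them, with log2 share ratios to wild type of -0.36 (-0.37 to -0.34) in the heterozygous and -0.36 (-0.38 to -0.35) in the homozygous library. In all 6 cell classes described here both ratios were below 0. mt-Nd2 took 1.91%, 1.54% and 2.39%, so its share was lower in the heterozygous library, with a log2 share ratio of -0.31 (-0.33 to -0.29), and higher in the homozygous one, with 0.32 (0.30 to 0.34). Each direction was again seen in 6 of 6 classes, which span -0.34 to -0.13 and 0.26 to 0.59. The number of mt-Nd1 UMIs per 100 mt-Nd2 UMIs was 251, 242 and 156 in the 3 libraries.

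mt-Nd4l took 0.256%, 0.142% and 0.328% of mt- UMIs and mt-Atp8 0.0656%, 0.0387% and 0.0829%. Set against the genes that they overlap, there were 5.36, 3.66 and 6.34 UMIs of mt-Nd4l per 100 of mt-Nd4, and 0.279, 0.169 and 0.3604 of mt-Atp8 per 100 of mt-Atp6. Both ratios were lowest in the heterozygous library and highest in the homozygous one. As each pair is known to share a messenger, mt-Nd4l and mt-Atp8 end inside it, away from the poly(A) tail that the kit captures. How their UMIs were captured was not tested, so the ratios and shares of mt-Nd4l and mt-Atp8 describe UMIs and are not read as RNA levels. The mt-Nd4l share was below wild type in 6 of 6 classes in the heterozygous library and above it in 6 of 6 in the homozygous one. The mt-Atp8 share was below wild type in 6 of 6 classes in the heterozygous library but above it in only 4 of 6 in the homozygous one. These class values rest on few UMIs, since mature neutrophil-like cells of the wild-type library held 15 mt-Atp8 UMIs.

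mt-Co3 took 19.8%, 20.8% and 17.3% of mt- UMIs and mt-Co1 18.5%, 20.7% and 20.8%. The mt-Co3 share was below wild type in 6 of 6 classes in the homozygous library and above it in 6 of 6 in the heterozygous one, by amounts up to 0.10. The mt-Co1 share was above wild type in both libraries, by 0.16 and 0.17. mt-Atp6, with 23.5%, 22.97% and 23.00%, kept nearly the same share throughout. mt-Nd5, mt-Nd4 and mt-Cytb had lower shares in the heterozygous library, with log2 share ratios of -0.51, -0.30 and -0.18, in 6 of 6 classes each. With 1 library per genotype, library preparation and genotype cannot be told apart here.

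**Figure D2:**
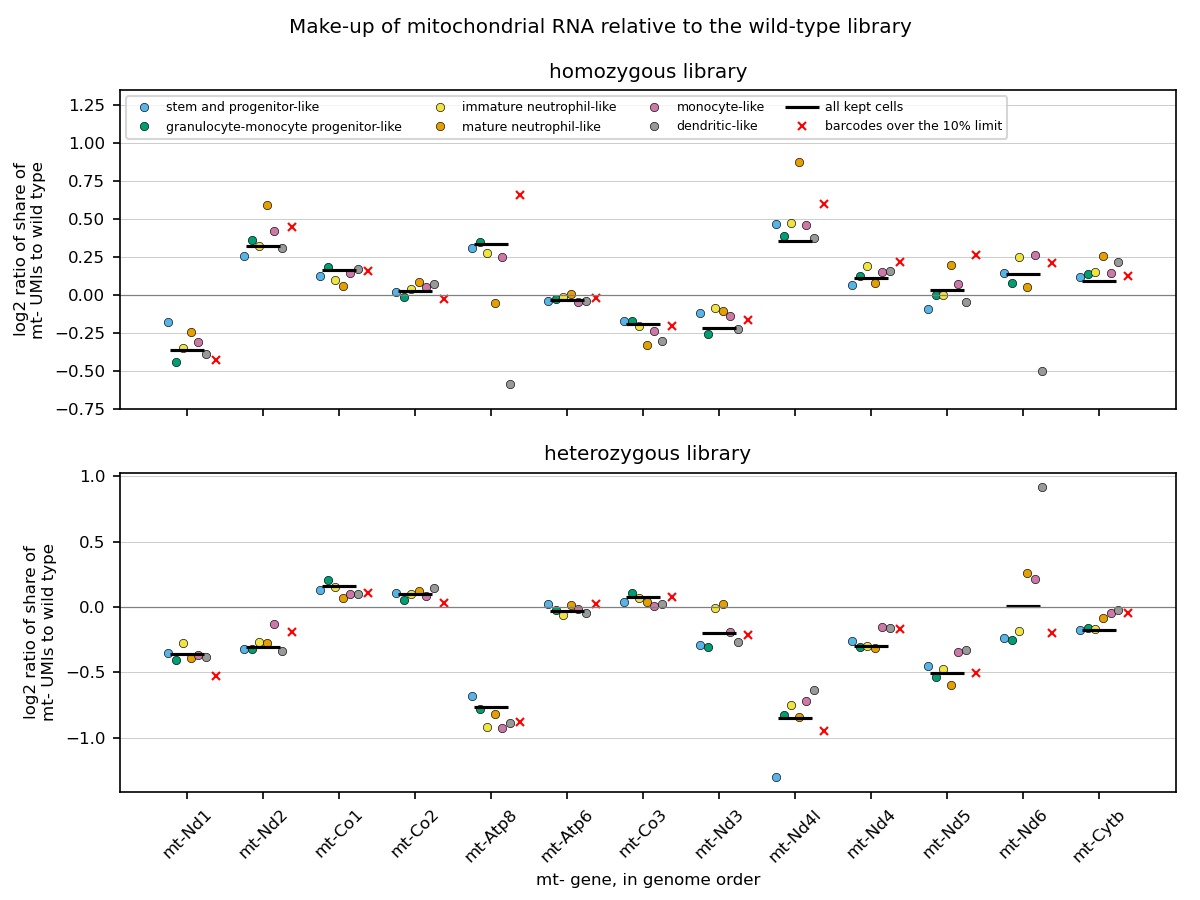
Log2 ratio of each mt- gene's share of mt- UMIs to that in the wild-type library, for the homozygous (top) and heterozygous (bottom) libraries, with genes in genome order. Coloured points are 6 cell classes, the black dash is all kept cells and the red cross is the barcodes over the 10% mitochondrial limit; mt-Nd1 lies below 0 in both panels and mt-Nd2 above 0 only in the upper one.

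Cells were next compared within classes gated on marker genes. A class was compared between libraries where each library had at least 100 kept cells of it. Granulocyte-monocyte progenitor-like cells (Elane, Mpo, Prtn3) numbered 1030, 758 and 843, immature neutrophil-like cells (Ltf, Camp, Ngp) 715, 2683 and 367, mature neutrophil-like cells (Cxcr2, Retnlg, Il1b) 196, 1480 and 204 and monocyte-like cells (Ccr2, Fn1, Csf1r) 1187, 909 and 1376. Stem and progenitor-like cells (463, 138 and 60) and dendritic-like cells (96, 418 and 77) are described only. The heterozygous library held many more neutrophil-like cells than the others, and 1860, 1532 and 1352 cells met no gate, with median depths of 8054, 5828 and 3069.5 UMIs.

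Within classes the nuclear medians of the heterozygous library were below wild type in all 4, and smaller in size than the -0.28 over all cells. Against wild type the nuclear median reached -0.20 in granulocyte-monocyte progenitor-like, -0.18 in immature neutrophil-like, -0.25 in mature neutrophil-like and -0.15 in monocyte-like cells. Over all genes the medians were -0.03, -0.09, -0.16 and -0.01, against -0.14 over all cells. The distance of the nuclear from the all-gene median was thus smaller than over all cells only in immature and mature neutrophil-like cells. Past the threshold were 2 of 29 in granulocyte-monocyte progenitor-like cells, Ndufv1 and Uqcrb (all genes 20.8%), 3 in immature neutrophil-like cells, Ndufa4, Uqcrb and Atp5b (25.3%), 12 in mature ones (37.8%) and 2 in monocyte-like cells, Sdhd and Uqcrb (17.8%). Cycs lay just short of it in granulocyte-monocyte progenitor-like cells. Those shares lie near or below the background, except that the members leaned one way: 28, 25, 28 and 26 of 29 were below wild type. Among all genes, 53.2%, 59.9%, 61.6% and 50.7% were below it in the same classes.

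The mt- members of the heterozygous library were below wild type in the 3 granulocytic classes and less so in monocyte-like cells. Their medians were -0.55, -0.53 and -0.55 in the first 3 classes, and -0.14 in monocyte-like cells. The mature neutrophil-like median ranged from -0.89 to -0.31 under other settings, and that class held 196 cells in the wild-type library. The granulocyte-monocyte progenitor-like median ranged only from -0.55 to -0.53. Lower past the threshold were 9, 10, 12 and 4 of the 13, beside the same all-gene shares, and the 4 in monocyte-like cells were mt-Nd1, mt-Nd4l, mt-Nd5 and mt-Atp8. The summed mt- level of monocyte-like cells was 28889.9, 28731 and 26056 CPM, so wild type and heterozygous were nearly equal there. Whether the difference between classes exceeds the spread between animals was not tested.

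Against wild type, the homozygous library had nuclear medians of -0.0039, 0.09, -0.16 and 0.09 in the 4 classes, on both sides of 0, beside all-gene medians of 0.03, -0.03, -0.11 and 0.08. No nuclear member of granulocyte-monocyte progenitor-like cells passed the threshold in either direction (all genes 18.8% higher and 17.5% lower). In immature neutrophil-like cells 2 of 29, Uqcrc2 and Cycs, were higher and 0 lower (all genes 17.5% and 21.9%). In mature ones 0 were higher and 5, namely Ndufa4, Sdha, Uqcrc1, Uqcrb and Atp5j, were lower (17.1% and 32.5%), and in monocyte-like cells 2, Ndufb3 and Cycs, were higher and 0 lower (25.6% and 16.3%). The mt- medians were -0.18, -0.16, -0.05 and -0.00046, and each of the 4 changed sign under at least 1 other setting. mt-Nd1 and mt-Co3 were nonetheless lower past the threshold in all 4 classes, with mt-Nd1 at -0.70, -0.60, -0.36 and -0.46 and mt-Co3 at -0.43, -0.46, -0.44 and -0.39. mt-Nd3 was past it in the first 2, and mt-Nd2 and mt-Nd4l were past it upward in mature neutrophil-like cells, at 0.47 and 0.76 (0.17 to 1.36). In mature neutrophil-like cells mt-Nd6 had too few UMIs for that comparison and was left out.

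Cycs is given in all 4 classes, whose differences from each other were not tested. In granulocyte-monocyte progenitor-like cells it was at 285, 228 and 307 CPM, with a heterozygous to wild-type ratio of -0.32 (-0.39 to -0.26) and a homozygous one of 0.11 (0.05 to 0.17). In monocyte-like cells it was at 254, 269 and 345 CPM, with a homozygous to wild-type ratio of 0.44 (0.38 to 0.50) and no heterozygous deficit, at 0.08 (0.01 to 0.15). In immature neutrophil-like cells it was at 181, 152 and 233 CPM, highest in the homozygous library by 0.37 (0.24 to 0.49). In mature ones it was at 137, 91.9 and 122 CPM, where the homozygous ratio of -0.17 (-0.49 to 0.16) included no difference. Ndufb3 was above wild type in the homozygous library in all 4 classes, by 0.28, 0.25, 0.17 and 0.36, although the interval in mature neutrophil-like cells (-0.23 to 0.56) included 0. Uqcrb was below wild type in the heterozygous library in all 4, at -0.35, -0.38, -0.50 and -0.34. mt-Nd1 was at 2107, 1348 and 1296 CPM in granulocyte-monocyte progenitor-like and 1229, 949.9 and 896 CPM in monocyte-like cells, with both knockout libraries below wild type in each.

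Between the knockouts, the homozygous library had nuclear medians above the heterozygous one in all 4 classes, at 0.19, 0.27, 0.16 and 0.23. Higher past the threshold were 2 of 29 in granulocyte-monocyte progenitor-like (all genes 22.2%), 9 in immature neutrophil-like (27.0%), 4 in mature (26.4%) and 8 in monocyte-like cells (27.9%). The 2 were Sdhd and Cycs, and the 4 were Sdhb, Sdhc, Cycs and Cox5b. These counts were close to or below the background. The mt- medians were 0.28, 0.40 and 0.49 in the granulocytic classes and -0.08 in monocyte-like cells. The last ranged from -0.09 to 0.09 under other settings. Medians over all genes were 0.07, 0.04, 0.05 and 0.09 in the 4 classes. Higher in the homozygous library were 8, 12, 12 and 6 of the 13 mt- members. In granulocyte-monocyte progenitor-like cells the mt- sum was slightly lower in the homozygous library, at 32554 CPM against 33095 CPM in the heterozygous one.

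Stem and progenitor-like cells, the population named in the series' question, were too few for comparison and are described only, with 60 cells in the homozygous library. Their nuclear members summed to 5899, 4843 and 6534 CPM, the same order as over all cells, and the nuclear median against wild type was -0.30 for the heterozygous library and 0.15 for the homozygous one. The mt- medians were -0.26 and 0.05, while the mt- sums were nearly equal. Their markers (Adgrg1, Gata2, Cd34) also mark other progenitors, so these cells are not purified stem cells. In dendritic-like cells the nuclear medians were 0.01 and 0.18.

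**Figure D3:**
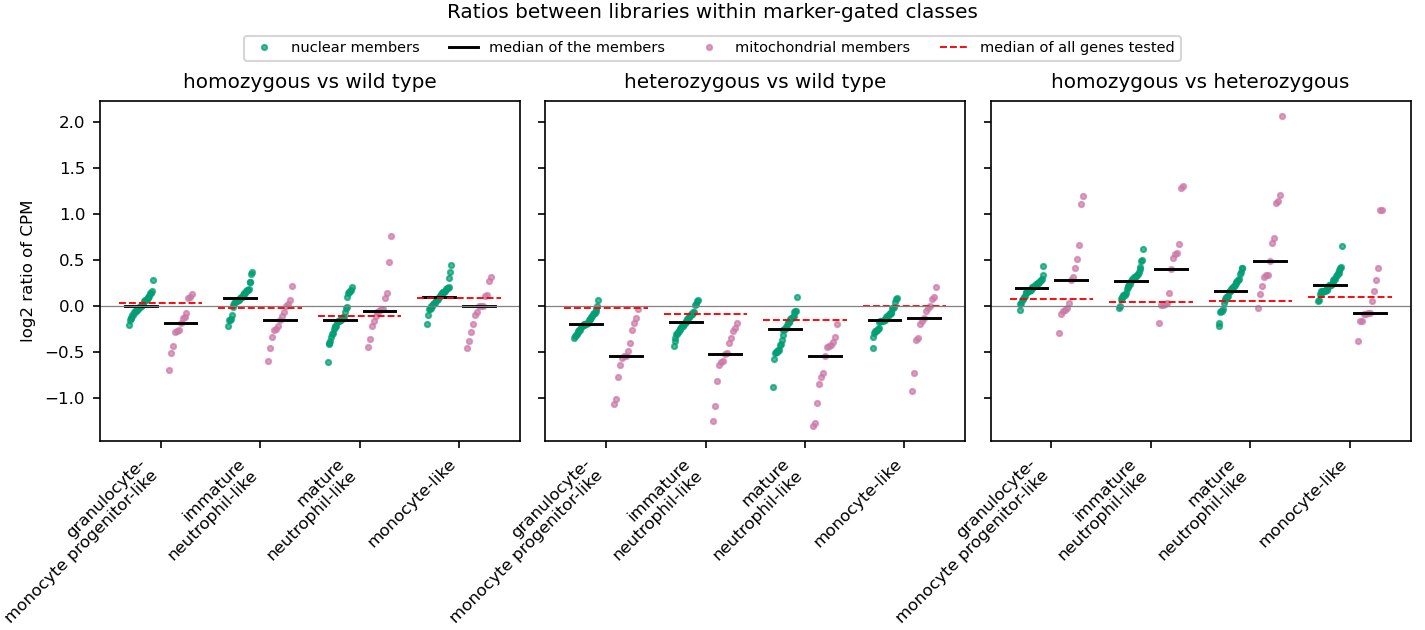
Log2 ratios of CPM between libraries within the 4 compared classes, 1 panel per comparison. Green points are nuclear members, pink points are mt- members, black bars are their medians and the red dashed line is the median of all genes tested; in the heterozygous to wild-type panel the mt- medians lie between -0.55 and -0.53 in the 3 granulocytic classes and at -0.14 in monocyte-like cells.

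Member RNA was lower at each step along the neutrophil line. Nuclear members summed to 8221, 7242 and 8147 CPM in granulocyte-monocyte progenitor-like cells, 6258, 5451 and 6495 in immature and 4559, 3675 and 4066 in mature neutrophil-like cells. The mt- members summed to 39089, 33095 and 32554, then 24369.8, 19245 and 20396, then 15813, 11502 and 14575 CPM. Both sums descended in this order in each of the 3 libraries. Taking mature neutrophil-like against granulocyte-monocyte progenitor-like cells, the nuclear median log2 ratios were -0.93, -0.97 and -1.06 and the mt- ones -1.36, -1.57 and -1.19, beside -0.31, -0.55 and -0.55 over all genes. Lower past the threshold in all 3 libraries were 26 of 29 nuclear and 13 of 13 mt- members, against 42.4% of all genes. The 3 nuclear members outside that count were Sdha, Sdhb and Cox4i1.

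The earlier and later steps differed in how many members were lower past the threshold and in the size of single ratios. From granulocyte-monocyte progenitor-like to immature neutrophil-like cells, 14 of 29 nuclear and 12 of 13 mt- members were lower in all 3 libraries (all genes 32.8%). From immature to mature, 20 of 29 and 11 of 13 were (all genes 26.6%). Ndufa4 had the log2 ratios -0.47, -0.70 and -0.37 at the first step and -0.76, -1.21 and -1.42 at the second. Atp5a1 had the opposite weighting, -0.68, -0.76 and -0.70 and then -0.38, -0.55 and -0.38. Cycs was lower at both, at -0.65, -0.58 and -0.40 and at -0.40, -0.73 and -0.94.

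The wider pathway followed the members along this line. In mature neutrophil-like against granulocyte-monocyte progenitor-like cells, 26 of 31 other complex I subunits, 10 of 10 other ATP synthase subunits and 13 of 17 tricarboxylic acid cycle genes were lower past the threshold in all 3 libraries, beside the same 42.4% of all genes. Mitochondrial translation genes, which make the machinery that reads the mt- messengers, were lower in 34 of 38, with medians of -1.66, -1.88 and -1.77, below those of the members themselves. Of the regulators of mitochondrial biogenesis 4 of 10 were lower, close to the 42.4% of all genes.

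A few members departed from this descent. Sdhb was higher in mature than in immature neutrophil-like cells, by 0.49, 0.22 and 0.47 in the 3 libraries, while its partner Sdhc was lower, at -1.02, -0.87 and -0.90. Sdhb was also the 1 nuclear member past the threshold upward in all 3 libraries in monocyte-like against granulocyte-monocyte progenitor-like cells, at 0.55, 0.54 and 0.65. Cox4i1 was nearly level between immature and mature cells, at -0.04, -0.16 and -0.03. Genes of 1 complex therefore did not always share their course across classes. The depth per cell was also lower along the line, with median UMIs of 14157 to 15976 in granulocyte-monocyte progenitor-like and 5356 to 5996 in mature neutrophil-like cells, and its part in the relative levels was not tested.

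Monocyte-like cells were closer to the progenitors. Of the nuclear members 10 of 29 were lower past the threshold in all 3 libraries and of the mt- members 4 of 13, where 25.6% of all genes were, and 1 of 29 nuclear members was higher, where 20.6% were. Ndufb3 and Uqcrb were lower, at -0.94, -0.87 and -0.86 and at -0.87, -0.87 and -0.78. Stem and progenitor-like cells held mt- RNA at 33276, 33120.4 and 32843 CPM, and 0 of 13 mt- members were lower and 0 of 13 higher past the threshold in all 3 libraries against granulocyte-monocyte progenitor-like cells (all genes higher 14.3%). In the same comparison 10 of 29 nuclear members were lower in all 3 libraries (all genes 11.6%), with nuclear medians of -0.47, -0.61 and -0.27 beside 0.02, -0.0012 and -0.01 over all genes. The homozygous value rests on 60 cells.

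**Figure D4:**
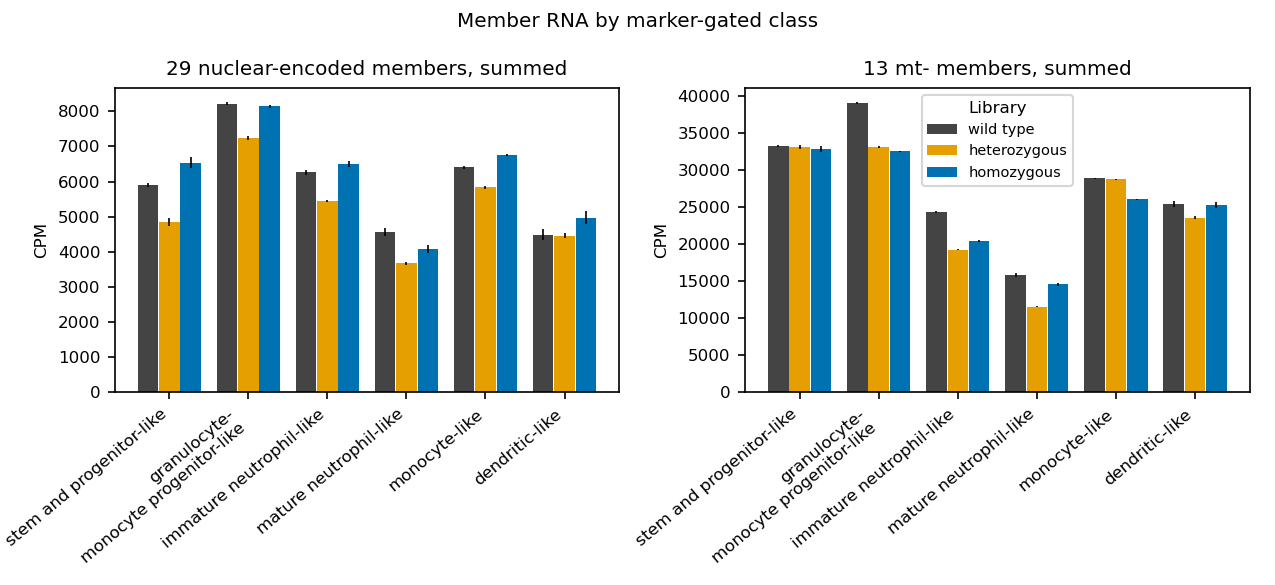
Summed level (CPM) of the 29 nuclear (left) and 13 mt- (right) members in 6 marker-gated classes, with bars for the wild-type, heterozygous and homozygous libraries and counting intervals as error bars. Both sums are lowest in mature neutrophil-like cells in the heterozygous and homozygous libraries, and the nuclear sum is highest in granulocyte-monocyte progenitor-like cells in all 3.

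Genes of the same pathway outside the 42 were described from 11 further lists of 227 genes. Nearly all remaining subunits were on the same side as the members: in the heterozygous library 30 of 31 complex I, 5 of 5 complex III, 5 of 5 complex IV and 10 of 10 ATP synthase subunits were below wild type, with medians of -0.27, -0.30, -0.32 and -0.33. Several lists of genes that make and maintain the chain had lower medians. Mitochondrial translation genes had a median of -0.46, with 29 of 38 past the threshold. Mitochondrial DNA transcription and RNA stability genes had -0.51, with 17 of 27. Carriers, import and cristae genes had -0.42, with 19 of 25. Assembly factors had -0.33 (27 of 48), tricarboxylic acid cycle genes -0.27 (7 of 17) and regulators of mitochondrial biogenesis -0.17 (5 of 11). The all-gene values are those given above, a median of -0.14, with 62.3% below wild type and 34.9% lower past the threshold.

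Leaving out the tissue-restricted isoforms, the medians of these lists were nearer wild type in granulocyte-monocyte progenitor-like and monocyte-like cells. The all-gene medians were also nearer there, at -0.03 and -0.01. The isoforms, with 2 genes tested in each of these classes, had -0.34 and -1.11, against -0.59 over all cells. The heterozygous library held more neutrophil-like cells, in which most of these lists were low. The part of that make-up in the medians over all cells was not tested. Mitochondrial translation genes had medians of -0.23 in granulocyte-monocyte progenitor-like cells (9 of 38 past the threshold, all genes 20.8%) and -0.23 in monocyte-like cells (12 of 38, all genes 17.8%). Assembly factors had -0.12 (12 of 48) and -0.04 (7 of 47) in the same classes, and tricarboxylic acid cycle genes -0.08 and -0.15. The other complex I subunits had -0.20 and -0.13. Mitochondrial DNA transcription and RNA stability genes had -0.16 and -0.21, and regulators of mitochondrial biogenesis were above wild type, at 0.04 and 0.15. In mature neutrophil-like cells the other complex I subunits had -0.36 and the tricarboxylic acid cycle genes -0.34, no smaller than over all cells. The all-gene median there was -0.16.

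In the homozygous library the medians of these lists, leaving out the tissue-restricted isoforms, lay between -0.04 and 0.08, on both sides of the 0.06 of all genes. Single genes differed by more. Polg2, the accessory subunit of the mitochondrial DNA polymerase, was at 63.7, 34.1 and 23.8 CPM, with ratios to wild type of -1.42 (-1.52 to -1.32) in the homozygous library and -0.90 (-0.97 to -0.83) in the heterozygous one. Cox6b2, a testis-enriched isoform of complex IV, was at 20.1, 12.05 and 12.5 CPM, with a homozygous to wild-type ratio of -0.68 (-0.82 to -0.54). Taco1, which activates translation of mt-Co1, was at 32.3, 20.4 and 44.2 CPM, and Ndufaf7, a complex I assembly factor, at 36.2, 46.7 and 47.99 CPM. Their homozygous to wild-type ratios were 0.45 (0.36 to 0.54) and 0.41 (0.32 to 0.49). Ttc19, a complex III factor, was lower, at -0.37 (-0.45 to -0.29). Fh1, the fumarase of the tricarboxylic acid cycle, was higher by 0.52 (0.41 to 0.62), and Tomm22, a receptor for protein import, by 0.33 (0.28 to 0.37).

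Among the remaining structural subunits, the homozygous to wild-type ratio of Ndufa13 was -0.23 (-0.27 to -0.20), that of Cox6a1 -0.20 (-0.25 to -0.16) and that of Uqcr11 -0.11 (-0.15 to -0.07). Higher ratios were those of Ndufb4 at 0.28 (0.16 to 0.39) and Ndufa3 at 0.23 (0.18 to 0.29). Cyc1, which carries the haem that reduces cytochrome c, was at 0.23 (0.16 to 0.30), and Uqcrfs1, the Rieske iron-sulphur protein, at 0.21 (0.15 to 0.26). Atp5g2, which encodes the c ring of ATP synthase, was at 0.28 (0.25 to 0.31). Of the rest of the short complex III and IV lists, Cox7b was at -0.11 (-0.14 to -0.08), and Uqcrh, Uqcr10, Cox8a, Cox6b1 and Cox7a2l lay between -0.04 and 0.07. None of these passed the threshold. The other tissue-restricted isoforms were scarce: Cox8b, Cox8c, Cyct and Ndufa4l2 had 2 or fewer UMIs in each library, at or under the floor of 3 counts, Cox6a2 had 8, 9 and 10, Cox7a1 was at 2.25, 1.496 and 2.34 CPM and Cox4i2 at 0.491, 0.412 and 0.325 CPM.

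The limit on mitochondrial share acts on the very sum that the mt- members make up. Barcodes over 10% made up 40.6%, 25.8% and 46.8% of the libraries, and the median share over all barcodes was 6.02%, 2.79% and 8.83%. Without a limit the mt- members summed to 59881, 38620.0 and 55529 CPM, and with a limit of 5% to 27069, 20678 and 23975 CPM. The heterozygous library was lowest under each limit. The homozygous sum was below wild type at 5%, at 10% and with no limit, but slightly above it at 25%, at 44689.9, 32242 and 45666 CPM. The nuclear members were also expressed per 1000000 UMIs of genes other than mt- genes. They were at 6985, 5672 and 7299.7 with a limit of 5% and 6523, 5452 and 6530.0 without a limit. At 25% they were at 6619, 5474 and 6610, with the homozygous library slightly below wild type. The excess of homozygous over wild type at 5% thus shrank to near a tie. The part of the mitochondrial share in the member levels was not tested otherwise.

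**Figure D5:**
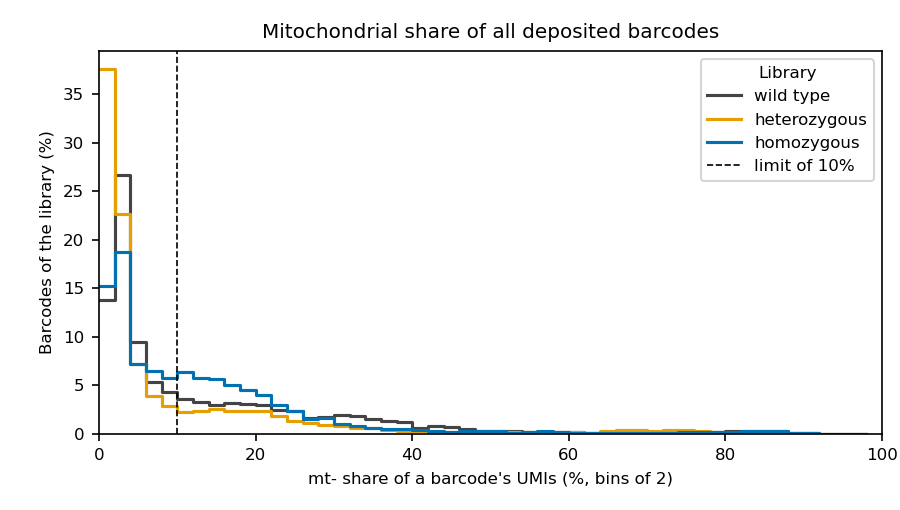
Share of barcodes (%) in each 2-point bin of mitochondrial share of UMIs (%) for the 3 libraries, with the 10% limit as a dashed line. The heterozygous library is the most concentrated below 2%, and the homozygous library exceeds the others between 10 and 20%.

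Cells of the heterozygous library were split by Xist and Y-linked RNA. The library pooled 2 mice, so sex and animal cannot be told apart in this split. Its cells with Xist only had nuclear sums of 7193 CPM in granulocyte-monocyte progenitor-like, 5621 in immature neutrophil-like, 4292 in mature neutrophil-like and 5995 in monocyte-like cells. Its cells with Y-linked RNA only had 7318, 5424, 3632 and 5816 CPM. The 2 sets were close except in mature neutrophil-like cells, where the Xist set held 89 cells. The mt- sums were higher in the Xist set in all 4 classes, for example 37247 against 32077 CPM in granulocyte-monocyte progenitor-like cells. Against the Xist-only cells of the wild-type library, the mt- sums were 37247 and 39282 CPM (heterozygous, wild type) in granulocyte-monocyte progenitor-like, 22913 and 24689 in immature neutrophil-like, 14201 and 16512 in mature neutrophil-like and 29342 and 29016 in monocyte-like cells. The heterozygous sum was thus lower in the first 3 classes and slightly higher in monocyte-like cells. The wild-type nuclear sums of these cells were 8219.6, 6337, 4694 and 6426 CPM, each above the heterozygous one. Over Xist-only cells of all classes, a comparison chosen after the data were seen, the heterozygous to wild-type medians were -0.22 for nuclear and -0.45 for mt- members, while the class make-up of the 2 libraries differed.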

How the data were processed

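Bone marrow of 2 pooled mice per Fabp4 genotype was profiled with the 10x Chromium 3' v3 kit, per the labels' protocols. The deposited values are raw UMI counts of each gene in each barcode, from matrices that Cell Ranger 8.0.1 wrote, per the file headers. Cell Ranger, STAR and the build mm10 are named in the submitters' processing notes, and the annotation release is not given in the sources used here. Groups were taken from the genotype labels. The sample titles mark the library labelled homozygous with H and the one labelled heterozygous knockout with K, letters that the labels do not explain, and an exchange of the 2 would swap every heterozygous and homozygous value.

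Counts were summed per library and class and scaled to CPM. Cells were gated with 13 marker classes (89 genes, 1 not in the tables) to the class with the highest mean z-score, if that exceeded 0.25 and at least 3 markers were detected. Doublets were removed only as an alternative, at the top Scrublet scores (scanpy 1.11.5). Ratios used genes with at least 20 UMIs in both libraries together. Intervals are 95%: exact Poisson for levels, exact binomial for shares and exact conditional for ratios. Levels at or under 3 counts were taken as the floor. No p-value was computed, and a ratio of 5 to 4 or more in either direction (about 0.32 on the log2 scale) was counted. The intervals were run on known ratios in simulated counts for 17034 genes of the homozygous to wild-type comparison. Those counts held counting error alone, as the intervals assume, so spread between cells or animals was not probed.

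All 42 members could be named, with full values for those whose ratio interval lay wholly past the threshold and for the 3 nuclear and 3 mt- members farthest in each direction. From each other list, up to 2 genes per direction were eligible, by the bound of the homozygous to wild-type ratio farthest past 0, given 50 UMIs in 1 library, and all genes of lists of 8 or fewer. Isoforms and pathway examples follow that rule. The members, lists and gate thresholds were chosen with earlier results of these data known. Tools were Python 3.11.15, numpy 2.4.6, scipy 1.17.1, pandas 2.3.3 and matplotlib 3.10.9. Kept cells held 67141826, 72880881 and 46093025 UMIs (wild type, heterozygous and homozygous). Alternatives were other cell filters, scalings, weights and gates.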

Additional observations from a re-analysis of the deposited data

Results flagged for a closer look

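Barcodes over the 10% mitochondrial limit, which the comparisons do not use, held the same excesses of the homozygous library over wild type. In them mt-Nd2 took 2.63% of mt- UMIs in the homozygous library, against 1.93% in wild type and 1.69% in the heterozygous library. mt-Nd4l took 0.421%, against 0.278% and 0.144%. mt-Atp8 took 0.116%, against 0.0733% and 0.0399%. These 3 shares drew attention because each exceeded the wild-type level in data left out of the main measurement. These barcodes came from the same libraries as the kept cells, so they are not an independent sample. How the UMIs of mt-Nd4l and mt-Atp8 were captured was not tested here either.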

How the results depend on the processing

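The 6 medians over all kept cells were recomputed under 15 settings, 2 of them (Xist-only cells, gated cells only) chosen after the data were seen. Below, values run as nuclear then mt-. Homozygous against wild type: no mitochondrial limit 0.02 and 0.06, limit 25% 0.01 and 0.17, size factors -0.02 and -0.15, each cell counted once -0.08 and 0.20. For nuclear members alone a 5% limit gave 0.09 and equal class weights 0.01, and for mt- members alone at least 5000 UMIs gave -0.19. Heterozygous against wild type: no limit -0.22 and -0.84, size factors -0.13 and -0.50, equal class weights -0.18 and -0.40, Xist-only cells -0.22 and -0.45, gated cells -0.32 and -0.72. For mt- members alone 5% gave -0.59 and 25% -0.69. Homozygous against heterozygous: no limit 0.27 and 0.75, 25% 0.28 and 0.74, size factors 0.11 and 0.18, each cell once 0.23 and 0.81, equal class weights 0.23 and 0.23, Xist-only cells 0.28 and 0.17. For mt- members alone 5% gave 0.25 and at least 5000 UMIs 0.27. The other 53 values moved less than their counting interval. Only the homozygous to wild-type medians changed sign, and the cause was not tested. Of 24 class medians, 18 kept 1 sign under 4 settings, and 20 of 96 class values moved beyond their interval. Doublet removal took 251, 507 and 149 cells. No paired analysis was possible because each genotype has 1 library. The depth of 1 library per genotype limits every statement to these libraries.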
